A study of Homo sapiens with 8 samples.

Results

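The 600 kb around MSX1 on chromosome 4 (hg19, 4500000 to 5100000) were examined for chromatin accessibility in G401 cells, and above all a region 49.0 kb upstream of the MSX1 start site. G401 is a cell line of a kidney rhabdoid tumour without SMARCB1, one of the core proteins of the SWI/SNF complex, which moves nucleosomes and so opens DNA. A SMARCB1 gene that doxycycline switches on had been added to them. Samples came from day 0 without the drug (labelled SMARCB1 -/-, 2 samples) and from cells given it for 1, 3 or 7 days at 1 µg/ml (labelled SMARCB1 +/+, 2 samples each). All 4 groups are the same stable line kept in Tet-free serum, and the labels do not say whether it is 1 clone or whether the 2 samples of a day were separate cultures. The stretch was selected on its position around 1 region, at 4811795 to 4813186 (called the distal region below). That region was itself chosen by its measured summits on days 1, 3 and 7 against day 0, so its own change is a description and no test of it is given. The window held 240 of the 411408 peaks in the 4 deposited lists, and these merged into 83 of 146099 regions. At the edges of the window, the region just inside, at 4504235 to 4504910, had 81, 67, 72 and 63 summit reads on days 0, 1, 3 and 7. The region just outside, at 4498278 to 4499570, had 55, 136, 132 and 94.

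MSX1 encodes a homeodomain transcription factor that acts downstream of BMP signals, mostly as a repressor, and is best known from neural crest, tooth and limb development. Accessible DNA far from a start site often marks enhancers, which SWI/SNF helps to keep open, and AP-1, named in the title of the series, is a family of factors that binds many such sites. In ATAC-seq a transposase cuts and tags open DNA, so reads pile up where chromatin is accessible. The transcript of MSX1 was not measured here. MSX1 lies on the plus strand, so lower coordinates are upstream of it. In the RefSeq gene order of another build (GRCh38.p14), the nearest named protein-coding genes are STX18 on the upstream side and CYTL1 and then STK32B on the downstream side. The positions of those genes were not carried over to hg19, so no peak was assigned to them, and whether the distal region lies in an exon or an intron was not analysed here.

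The start region of MSX1 had a peak in every list, and its sequence is shown because those peaks lie over it. The peak on day 0 reached from 370 bp before to 242 bp after the start site at 4861392. RefSeq gives these 250 bases before the MSX1 start, at chr4:4859415-4859664 on the plus strand of GRCh38.p14, with capitals where a GC box (GGGCGG) or a CCAAT box (CCAAT) was found on either strand. The match with the peak assumes that both builds place the start at the same base.

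MSX1: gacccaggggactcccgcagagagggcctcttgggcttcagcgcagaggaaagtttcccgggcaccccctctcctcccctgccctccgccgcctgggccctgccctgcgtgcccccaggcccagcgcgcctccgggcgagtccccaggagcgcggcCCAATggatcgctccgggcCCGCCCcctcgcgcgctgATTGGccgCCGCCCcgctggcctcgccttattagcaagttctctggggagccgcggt

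This stretch was 74% G and C and held 24 CpG dinucleotides, against a median of 58% and 11 over 35116 RefSeq promoters cut to the same length. The CCAAT boxes began 94 and 57 bases before the start, and the GC boxes 75 and 49 bases before it, without overlap. A CCAAT box was found in 32.0% of all promoters and a GC box in 42.6%. The AP-1 letters TGANTCA were not in this window, nor were the related letters TGACGTCA or the TATA box letters TATAAA. Over all promoters these were found in 6.57%, 1.65% and 10.7%. The sequence of the distal region was not analysed here.

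Only 1 peak list was deposited per day, so differences between days carry neither a p-value nor an error over replicates. Day 0 was assigned by elimination to the list left over once those of days 1, 3 and 7 had been matched by name. Values are the reads at a peak's summit, recovered from the authors' fold and -log10 p. They were divided by the genome-wide background of the list, the level most peaks of a quiet neighbourhood share, which was 6.34, 6.04, 6.73 and 6.10 reads on days 0, 1, 3 and 7. These quotients are called scaled summits. Intervals are 95% and cover the counting error of reads alone, and PCR copies among the reads would call for wider ones.

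By summit reads, the distal region went from 1 of the weakest peaks of its list on day 0 to 1 of the stronger ones on the induced days. Its summit held 20, 155, 181 and 111 reads on days 0, 1, 3 and 7. Scaled summits were 3.15, 25.6, 26.9 and 18.2 times the genome-wide background. All 3 induced days stood far above day 0, and day 7 stood below days 1 and 3. The ratio of the scaled summit to day 0 was 8.13 for day 1, with an interval from 5.09 to 13.7. It was 8.54 for day 3, from 5.37 to 14.3, and 5.77 for day 7, from 3.56 to 9.81. Within each list, 99.8% of day 0 peaks had a summit at least as high, against 9.71%, 5.01% and 15.9% on days 1, 3 and 7. By the authors' fold it stood less low on day 0, where 83.2% of peaks had a fold at least as high. On days 1, 3 and 7 that share was 9.19%, 9.53% and 10.7%.

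The day 0 peak was close to the limit of detection. Its -log10 q was 3.03, where the smallest in that list was 2.44, and the smallest summit of the list held 18 reads. On days 1, 3 and 7 the -log10 q was 79.0, 88.0 and 54.0. Among the 60786 regions of the genome with a peak on every day, 130 had a day 0 summit of 20 reads or fewer. The median ratio to day 0 of these 130 was 1.68, 1.74 and 1.61 on days 1, 3 and 7, against 1.06, 0.943 and 0.972 over all 60786. Low day 0 summits that were still detected thus had higher ratios as a group, and 31.5%, 33.8% and 26.2% of the 130 were at least 2-fold higher on days 1, 3 and 7.

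The peak also widened. It was 228 bp wide on day 0 and 1280, 1381 and 1120 bp wide on days 1, 3 and 7. The 4 summits lay within 150 bp of each other, between 49.0 and 49.1 kb from the start site. Those of days 0, 1 and 3 were at 4812369, 4812362 and 4812394. That of day 7 was at 4812244, just outside the day 0 peak, which reached from 4812256 to 4812483. The steps between induced days were smaller than the step from day 0. Day 3 was 1.05 times day 1 (0.842 to 1.31), day 7 was 0.676 times day 3 (0.529 to 0.861) and day 7 was 0.709 times day 1 (0.551 to 0.911).

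**Figure D1:**
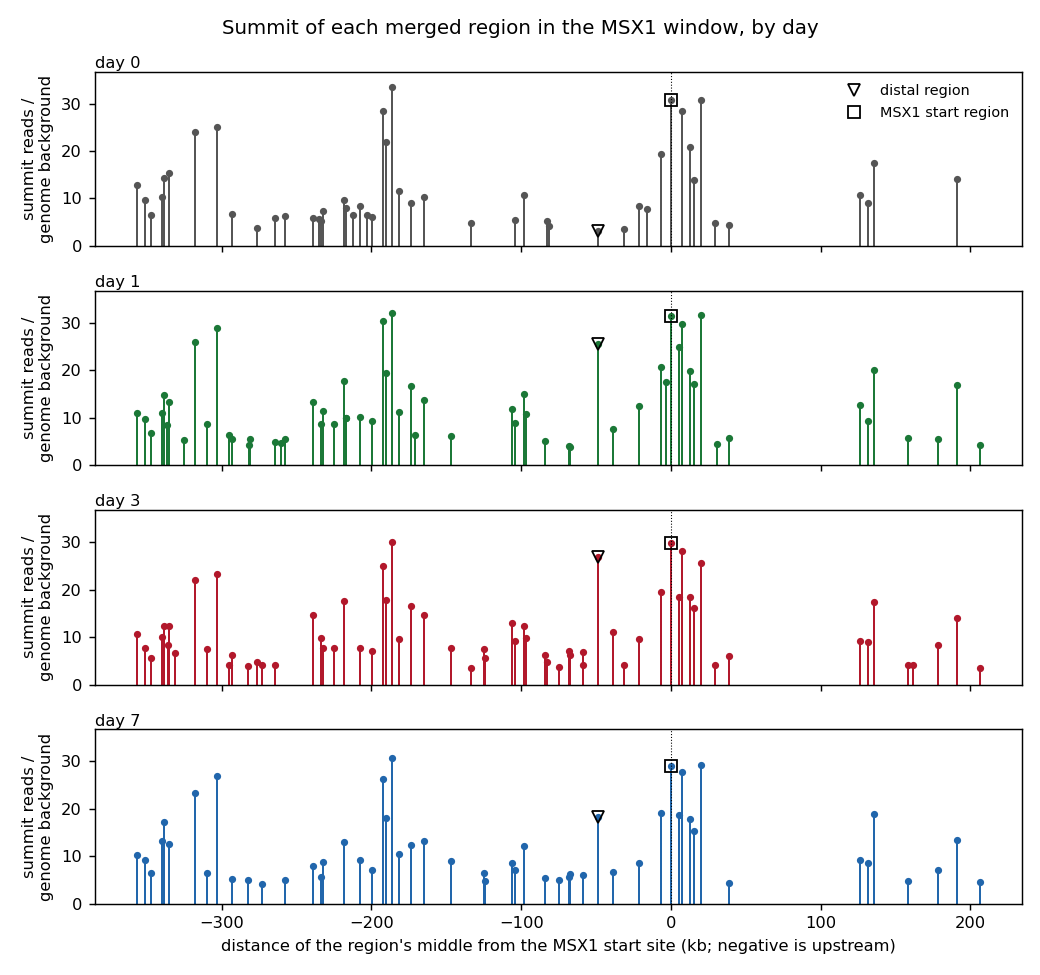
Scaled summit of each merged region of the window, 1 panel per day, against distance from the MSX1 start site in kb. The triangle marks the distal region, at 3.15 on day 0 and 25.6, 26.9 and 18.2 on days 1, 3 and 7, and the square the MSX1 start region, between 29.0 and 31.4 on all 4 days.

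The local background of the distal region was higher too. The local background is the level per position that the peak caller derives from the 10 kb around a position, which here includes the peak's own reads. It was 6.94 reads on day 0, little over the genome-wide 6.34, and 19.7, 24.4 and 15.0 reads on days 1, 3 and 7. These correspond to 347, 985, 1221 and 749 reads in the 10 kb window. Set against day 0 after scaling, these were 2.98, 3.32 and 2.24 times as high. In the window 1 of 36 regions present on every day, the distal one, had a local background at least 2-fold higher, and did so on each induced day. Over the genome this held for 0.867%, 1.34% and 0.395% of such regions.

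The authors' fold sets the summit against that background, so it changed less than the summit. It was 2.64 on day 0 and 7.54, 7.16 and 7.01 on days 1, 3 and 7. The ratios to day 0 were therefore 2.85, 2.71 and 2.65, and the 3 induced days lay closer together than in scaled summits. Subtracting the local background instead left 13.1, 135, 157 and 96.0 reads. On that scale the ratios to day 0 were 10.9, 11.3 and 7.64. Which of these scales stands closest to accessibility was not tested.

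**Figure D2:**
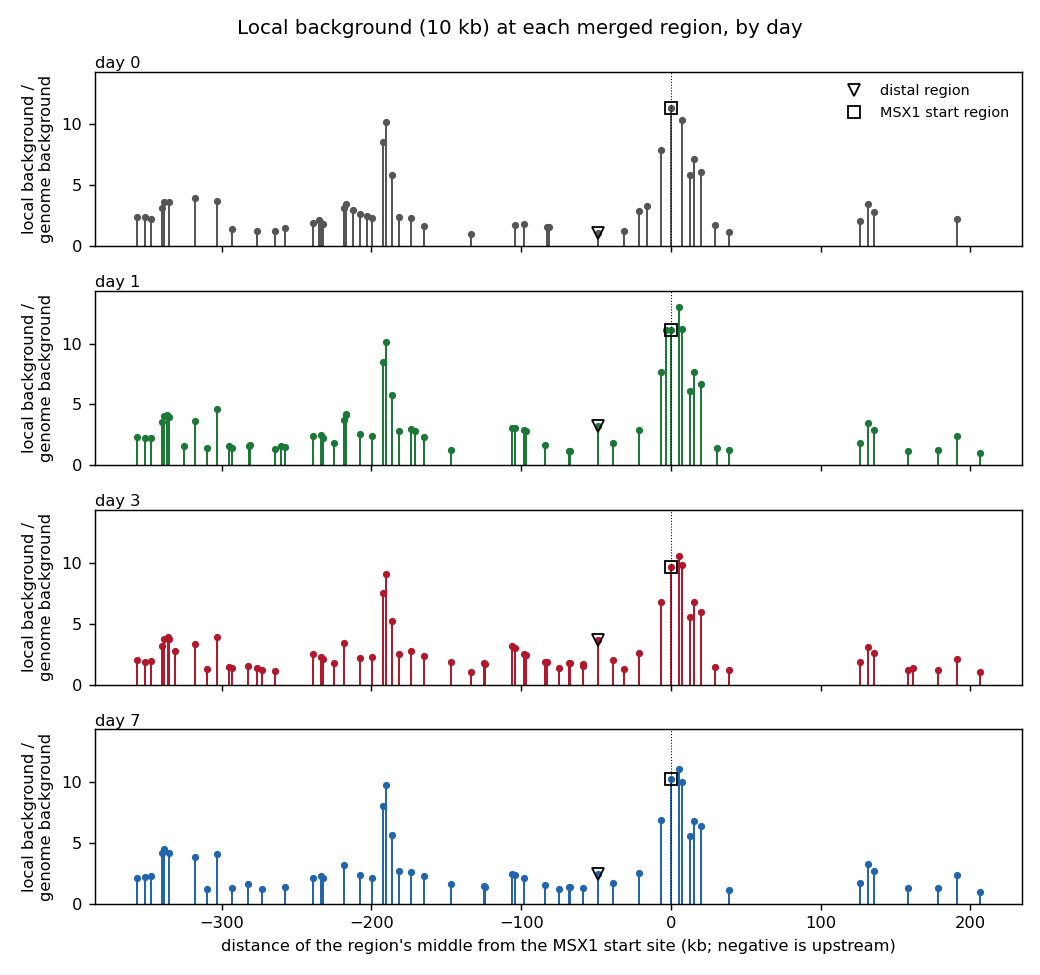
Local background of each merged region divided by the genome-wide background of its list, 1 panel per day, against distance from the MSX1 start site in kb. The distal region (triangle) stood at 1.09 on day 0 and at 3.26, 3.63 and 2.46 on days 1, 3 and 7, while the MSX1 start region (square) stood at 11.3, 11.1, 9.69 and 10.3.

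The MSX1 start region, at 4860974 to 4861684, did not share this course. Its summit held 195, 190, 201 and 177 reads on days 0, 1, 3 and 7, or 30.7, 31.4, 29.9 and 29.0 times the genome-wide background. The ratios to day 0 were 1.02 (0.833 to 1.26), 0.972 (0.794 to 1.19) and 0.944 (0.766 to 1.16) on days 1, 3 and 7. Each interval includes 1, and they span 0.766 to 1.26 in counting error alone, without error over replicates. The start of MSX1 was therefore already accessible in the cells labelled SMARCB1 -/-, at a summit reached by 5.82% of day 0 peaks.

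The start region lies in a broad stretch of high signal. Its local background was 71.8, 67.2, 65.1 and 62.9 reads, or 3590, 3360, 3257 and 3146 reads in 10 kb. Only 0.814%, 0.672%, 0.727% and 0.585% of the peaks in each list had a local background as high. Its fold was accordingly low, at 2.69, 2.80, 3.05 and 2.78. Within 25 kb of the start site, 7 regions had a peak on every day. Their summit ratios ranged from 0.954 to 1.46 for day 1, 0.832 to 1.17 for day 3 and 0.859 to 1.11 for day 7.

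The 1 of these 7 whose interval left out 1 was the region at 4839278 to 4841010, 21.2 kb upstream, on day 1 (1.46, 1.01 to 2.11). It held 54, 75, 65 and 53 summit reads on days 0, 1, 3 and 7. Just downstream of the start, the region at 4866085 to 4867076 had no day 0 peak and 151, 124 and 114 reads on days 1, 3 and 7. Its fold was 1.90, 1.73 and 1.67 over a local background of 78.9, 71.2 and 67.8 reads. In such surroundings a summit well above the genome-wide level can fall short of a peak, so the missing day 0 peak there does not show closed chromatin.

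**Figure D3:**
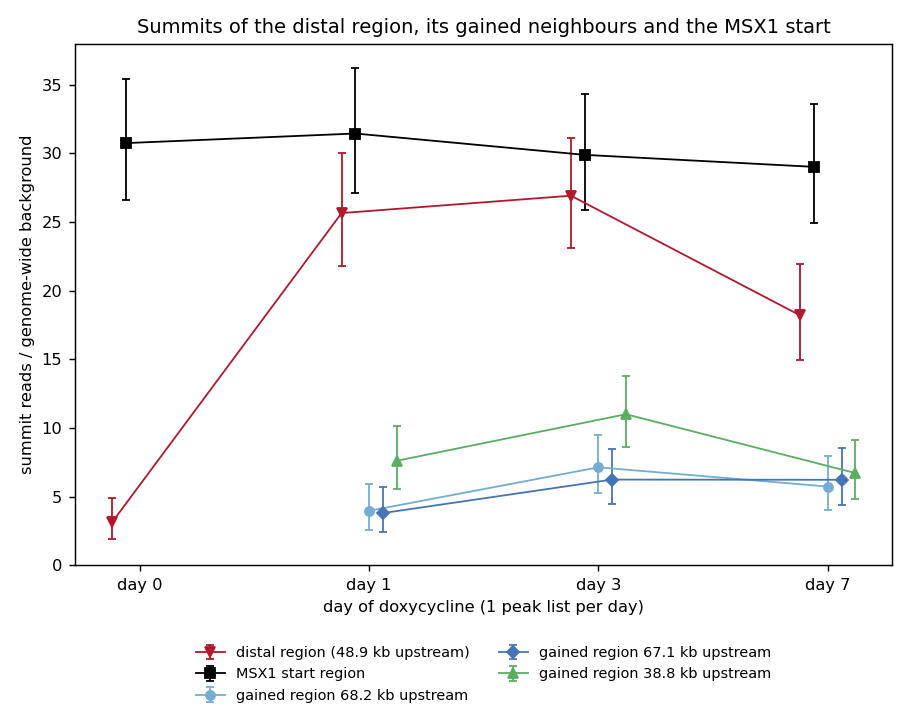
Scaled summits by day for the distal region, the MSX1 start region and the 3 regions within 25 kb of the distal one that lacked a peak on day 0 and had one on days 1, 3 and 7. Points are the single values of each day's list, bars are exact Poisson 95% intervals of the reads, and days without a peak have no point. The distal region lies below the MSX1 start region on every day and comes closest to it on days 1 and 3.

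The nearest neighbours of the distal region were not detected in every list. Between the nearest regions present on every day, which end at 4763731 and begin at 4839278, lay 75.5 kb with 12 regions, the distal one included. By this choice of borders none of the other 11 had a peak on every day. No day 0 peak was found at 8 of the 11, where 79.1% of all regions not present on every day lacked one. Of the 8, 4 were detected on days 1, 3 and 7, against 28.2% of all regions without a day 0 peak. Counts this small are given as a description. In this stretch, the distal region included, 4 peaks covered 0.970 kb on day 0 and 6 covered 4.16 kb on day 1. There were 11 over 6.28 kb on day 3 and 7 over 4.36 kb on day 7. The distal region, with 1 peak per day, made up 228, 1280, 1381 and 1120 bp of this on days 0, 1, 3 and 7. Leaving out the distal region, the summits there held 22 to 33 reads before induction, and 23 to 65, 25 to 74 and 31 to 41 reads on days 1, 3 and 7.

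The nearest neighbour on the side of MSX1, at 4822003 to 4823206 and 38.8 kb from the start, had no day 0 peak and 46, 74 and 41 reads on days 1, 3 and 7. Day 3 was 1.45 times day 1 (0.987 to 2.14) and day 7 was 0.611 times day 3 (0.407 to 0.906). The region at 4829776 to 4830061, 31.5 kb upstream of MSX1, had 22 reads on day 0, 28 on day 3 and no peak on days 1 and 7. It is the only other region within 25 kb of the distal one with a day 0 peak.

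On the far side lay 4 neighbours, none with a day 0 peak. The regions at 4802260 to 4802492 and 4802732 to 4803216 had no peak on days 0 and 1. They held 28 and 46 reads on day 3, and the latter held 37 on day 7. A pair at 4792874 to 4793417 and 4793944 to 4794669, about 68 kb from MSX1, had 24 and 23 reads on day 1, 48 and 42 on day 3 and 35 and 38 on day 7. For the former, day 3 was 1.80 times day 1 (1.08 to 3.07), and for the latter 1.64 times (0.964 to 2.86). The local background at this pair was 7.28 and 7.00 reads on day 1 and 12.1 and 12.0 on day 3.

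Local background was also higher about 100 kb upstream of MSX1. At the region from 4757121 to 4757467 it was 10.8, 18.5, 20.3 and 14.6 reads on days 0, 1, 3 and 7. The summit there held 35, 54, 62 and 43 reads, 1.62 times day 0 on day 1 (1.04 to 2.55) and 1.67 times on day 3 (1.09 to 2.61). Its fold barely differed, at 0.927 and 0.969 of day 0. The adjacent region from 4754518 to 4755512 had no day 0 peak and 72, 87 and 52 reads on days 1, 3 and 7. At 4763094 to 4763731 the summit held 68, 91, 83 and 74 reads, and the local background was 1.62 times that of day 0 on day 1.

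Further upstream, a few regions present on every day had higher summits on days 1 and 3 than on day 0, and smaller ratios on day 7. At 4621531 to 4622613, 239 kb upstream, the summit held 37, 80, 98 and 49 reads. The ratios to day 0 were 2.27 (1.52 to 3.45), 2.50 (1.70 to 3.75) and 1.38 (0.880 to 2.17). The region at 4687099 to 4688211 held 57, 101, 111 and 76 reads, with ratios of 1.86, 1.84 and 1.39. The region at 4642286 to 4643789 held 61, 107, 119 and 80 reads, with ratios of 1.84, 1.84 and 1.36. The day 7 intervals of these 3 regions included 1 and reached up to 2.17, 1.99 and 1.94, so neither a return to day 0 nor a remaining difference is shown.

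Other tall summits of the window differed little between days. The 5 with the highest scaled summit on any day were the MSX1 start region, 2 regions just downstream of it and 2 about 190 kb upstream. The region at 4674557 to 4675328 held 212, 194, 202 and 187 reads on days 0, 1, 3 and 7, and that at 4667710 to 4669908 held 180, 184, 168 and 160. Downstream of the MSX1 start, the region at 4867511 to 4869636 held 181, 180, 189 and 169 reads, and that at 4881088 to 4882433 held 195, 191, 172 and 178. For these 4 regions every interval of the ratio to day 0 included 1, the lowest bound being 0.674 and the highest 1.33.

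Taken as a whole, the window did not differ much from the genome in its share of gained regions. Of its 83 regions, 36 had a peak on every day, or 43.4%, against 41.6% of all 146099. No day 0 peak was found at 34, or 41.0%, against 46.2%. Of these 34, 10 were detected on each of days 1, 3 and 7. Those 10 made up 12.0% of the 83 regions, where the share of all 146099 was 13.1%. As a share of the regions lacking a day 0 peak, they were 29.4%, against 28.2% over the genome. A peak on day 1 alone was found at 10 regions, or 12.0%, against 6.69%, and on day 0 alone at 5, or 6.02%, against 4.26%. The window held 52, 64, 68 and 56 peaks on days 0, 1, 3 and 7. That is 1.23, 1.31 and 1.08 times day 0, where the whole lists were 1.36, 1.46 and 1.28 times day 0. Peaks on days 0 and 3 only were found at 5 regions, or 6.02%, against 1.00%, and on days 3 and 7 only at 7, or 8.43%, against 4.55%. Day 3 alone had 4, or 4.82%, against 9.73%, and day 7 alone had 0, against 5.27%. The shares with a peak on every day, without a day 0 peak and gained on all 3 induced days are near the genome's. Larger departures, as on day 1 alone or on days 0 and 3 only, rest on 10 regions or fewer.

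Of the 36 regions present on every day, the scaled summit was at least doubled against day 0 at 2 on day 1, at 2 on day 3 and at 1 on day 7. Over the genome such regions made up 3.89%, 4.02% and 2.22%. The 2 regions were the distal one and that at 4621531 to 4622613, and on day 7 the distal one alone. The first of them chose the window, so nothing is read from these shares. No region of the 36 was 2-fold lower, the lowest ratios being 0.830, 0.799 and 0.774 on days 1, 3 and 7. The median ratios were 1.11, 0.978 and 0.996. Counting intervals lay wholly above 1 at 9, 7 and 1 of the 36 regions on days 1, 3 and 7, the distal region among them each time. The shares over the genome were 10.0%, 8.71% and 5.36%. Intervals wholly below 1 were found at 0 of the 36, against 0.434%, 3.02% and 1.74% over the genome.

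**Figure D4:**
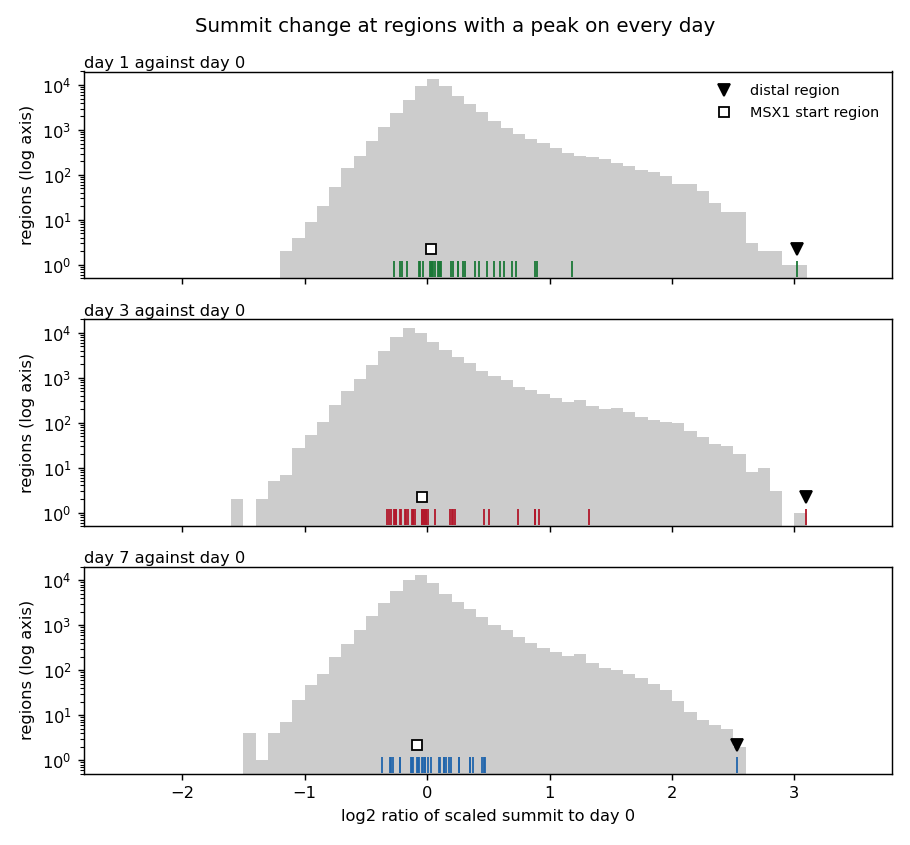
Histograms of the log2 ratio of the scaled summit to day 0 over the 60786 regions of the genome with a peak on every day, on a log count axis, with ticks for the 36 such regions of the window. The distal region (triangle) lies at the right end on each day, at 8.13-fold, 8.54-fold and 5.77-fold, and the MSX1 start region (square) lies near 0, at 1.02-fold, 0.972-fold and 0.944-fold.

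Among those 60786 regions the distal region ranked 1 by summit ratio on days 1 and 3 and 2 on day 7. The next values were 7.70 on day 1 and 7.28 on day 3, and the region ahead of it on day 7 had 5.91. By ratio of the authors' fold it ranked 35, 61 and 25, and by ratio of local background 33, 36 and 101. These ranks describe the choice of the region and support nothing.

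The regions of the genome most like it were sought by distance in log2 scaled summit over the 4 days. The closest was chromosome 2, 149030601 to 149031548, at a distance of 0.36, with 23, 130, 174 and 122 reads on days 0, 1, 3 and 7. Next, also at 0.36, came chromosome 14, 36076419 to 36077561, with 23, 133, 158 and 112 reads. Chromosome 5, 125004395 to 125005331, followed at 0.37 with 24, 176, 176 and 98 reads. Chromosome 4, 83695670 to 83696607, and chromosome 8, 109132172 to 109133185, lay at 0.40. All 5 started from 22 to 26 reads on day 0 and stood above 90 reads on every induced day. Their local background on day 1 was 1.78 to 2.49 times that of day 0, below the 2.98 times of the distal region upstream of MSX1. This background includes each peak's own reads, and the distal region was chosen by its induced summits. No difference in surroundings is therefore read from it.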

How the data were processed

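ATAC-seq was done on 8 samples in 4 groups of 2, grouped by sample title. The submitters' processing notes name Bowtie2, deepTools, MACS2 version 2.1.1.20160309 and hg19. The sources used here do not give read filters, offsets or any pooling of replicates. The authors deposited 1 file of narrowPeak layout with 4 peak lists. Per peak the deposited values are a score (10 times the -log10 q), a fold ratio over local background, the -log10 p, the -log10 q (a p-value and a q-value on that scale) and the summit's offset in bp.

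Summit reads and local background were recovered from fold and p, with 1 added to both reads and background in the fold and p taken as a Poisson tail. For all 411408 peaks 1 whole number of reads, and no other, gave the deposited -log10 p within 0.005, and the script was tested on simulated data. All 235 window backgrounds above the genome-wide one were whole reads in 10000 bp, within 0.01, at an extension of 200 bp. Peaks overlapping by at least 1 bp were merged, and a region's value is its highest summit of the day. Ratios have exact conditional binomial 95% intervals. Depth per sample is unknown, and the genome-wide background stands in for it.

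The members, lists and alternatives were chosen with earlier results of these data known. Named were the distal and MSX1 start regions, all regions within 25 kb of the former, the 5 highest summits, all with a 2-fold change, the 3 gained regions of highest fold, and the 5 regions elsewhere most like the distal one. All others named, and the stretch between neighbours, were chosen after their values were seen. Tests across samples and lists of MSX1 pathway genes were not run, since the file has no value per sample and the gene table is of another build. Software was Python 3.11.15, NumPy 2.4.6, pandas 2.3.3, SciPy 1.17.1 and matplotlib 3.10.9. Coordinates are 1-based hg19 unless stated.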

Additional observations from a re-analysis of the deposited data

How the results depend on the processing

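Of 56 values computed under alternatives, 44 stayed within the interval or within 1.5 times the count reported, and 0 changed direction beyond its interval. By the authors' fold, the distal region was 2.85, 2.71 and 2.65 times day 0 on days 1, 3 and 7, outside the intervals of the summit ratios but still above 1. On that scale 1 region of the window was at least 2-fold higher on day 1 and 1 on day 3. Without depth scaling, and likewise when scaled by the median region, 3 were so on day 3, the region at 4627055 to 4627613 (33 and 66 reads on days 0 and 3) being added. With a -log10 q of at least 5, the day 0 peak of the distal region dropped out, so it no longer counted as present on every day, and 1, 1 and 0 regions were at least 2-fold higher on days 1, 3 and 7. With a fold of at least 4, the window held 16, 22, 22 and 21 peaks on days 0, 1, 3 and 7, because fewer peaks pass. Leaving out day 3, an alternative chosen after seeing the data, gave 37 regions on every day and 10 gained. No paired analysis was possible because the lists hold no value per sample, and leaving out single replicates was not run for the same reason. Depth limits the day 0 value of the distal region most, since it rests on 20 reads.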

Other observations

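Farther downstream of MSX1 the window was sparse. The stretch from 4850000 to 4899999, which holds the start site, had 10 regions, and that from 4900000 to 4949999 had 1. That 1 region, at 4899788 to 4900647, begins just before the border of these stretches and is counted in the latter only. No list had a peak in the 86.7 kb between 4900647 and 4987336, from 39.3 to 126 kb beyond the start site. Past it lay 9 regions. The 4 of them seen in all lists had summit ratios to day 0 between 0.856 and 1.19 on all induced days. Another 5 had no day 0 peak. The strongest of them by fold, at 5039544 to 5040415 and 179 kb downstream, held 33, 56 and 43 reads on days 1, 3 and 7, with folds of 3.89, 6.16 and 4.88. Its local background was 7.74, 8.26 and 8.02 reads, close to the genome-wide level on each day. The distal region upstream had a local background of 19.7, 24.4 and 15.0 reads on those days. That level includes the peak's own reads, and the region was chosen by its induced summits, so no difference in surroundings is read from it.

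Of the 3 gained regions of highest fold, another lay far upstream, at 4551119 to 4551628 and 310 kb from MSX1. It held 53, 51 and 39 reads on days 1, 3 and 7 and had folds of 5.65, 5.51 and 4.78. The last of the 3 was the neighbour of the distal region at 4822003 to 4823206, with folds of 3.96, 5.10 and 3.66. Over the 10 gained regions of the window, day 3 was the highest day at 6, day 1 at 3 and day 7 at 1. Over all gained regions of the genome the shares were 58.5%, 25.8% and 15.7% for days 3, 1 and 7.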
